A study of Mus musculus with 7 samples.

Results

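The arch patterning homeobox genes described here are Barx1, Gsc, Hmx1, Lhx6, Lhx8, Pax9 and Shox2, 7 of the 32285 genes counted in each cell, taken by symbol and followed in mesenchymal neural crest cells (NCCs) of mouse embryos. A cell was taken as mesenchymal when its unique molecular identifiers (UMIs, 1 per captured RNA molecule) for Twist1, Prrx1 and Prrx2 summed to at least 2, which held for 28030 of the 48282 cells kept at E9.5 and E10.5. None of the 7 genes was used to choose the cells. The strain was labelled Swiss-Webster (a mixed background, by the methods of the study) and all embryos carried Wnt1-Cre/+;ROSA-EGFPf/+, so that the Wnt1-Cre driver, active in the dorsal neural tube, switched on EGFP in NCCs and their descendants, and EGFP-positive, DAPI-negative cells were sorted. Controls carried only these alleles and gave 1 library at E8.5, 1 at E9.5 and 2 at E10.5, and embryos called Tbx1 null gave 1 library at E9.5 and 2 at E10.5, each library being a pool of embryos. The titles of the null libraries name them Tbx1null, their genotype field reads Wnt1-Cre/+;Tbx1+/-;ROSA-EGFPf/+, and the supplement of the study gives Tbx1-/- embryos. They are called null here after the titles. The chemistry was version 3 in the null library at E9.5 and in null replicate 1 at E10.5 and 3.1 in the other libraries of those stages. By the supplement, embryos of null replicate 1 at E10.5 had fewer somites than those of both controls of that stage. Those of null replicate 2 lay within the range of the controls. The part of embryo age in the genotype differences was not tested. The first arch was in the dissection at E9.5 and was removed at E10.5, when arches 2 to 6 and the heart were taken, so stage and dissected tissue cannot be told apart.

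Pharyngeal arches are filled by NCCs that come from different levels of the hindbrain and keep the Hox genes of their level: first arch cells have none, second arch cells have Hoxa2, and cells of more caudal arches add the Hox genes of paralog group 3. Across each arch, endothelin signaling through Ednra turns on Dlx5 and Dlx6 and then Hand2 in the ventral part, and signals from the ectoderm such as Fgf8 turn on further homeobox genes in patches. Barx1 is a Bar-class homeobox gene of tooth-forming and arch mesenchyme, and Gsc (goosecoid) codes for a homeodomain repressor needed for jaw and middle ear elements. Lhx6 and Lhx8 code for LIM homeodomain factors of oral mesenchyme. Pax9, known for teeth, palate and pharyngeal pouches, belongs to the group through its paired domain and lacks a homeodomain. Hmx1 is needed for the outer ear, and Shox2 for palate, limb and sinus node.

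Gsc, Hmx1 and Shox2 were the members that passed the test between null and control Hoxa2-only cells, each lower in null, and the bases upstream of their RefSeq starts are shown for that reason, 5′ to 3′ on the coding strand, from RefSeq promoters of build GRCm38.p6 without bases that GENCODE places inside the gene. An entry was matched for 6 of the 7 genes, all but Pax9. Capitals mark TAAT, the core bound by many homeodomains, and CANNTG, the E-box bound by Twist1 and Hand2, on either strand. No match of the first overlapped a match of the second. The Gsc and Shox2 stretches end where the GENCODE gene begins, and that of Hmx1 ends upstream of the GENCODE start given below, since its RefSeq start lies further upstream.
Gsc, chr12:104473331-104473486, minus strand: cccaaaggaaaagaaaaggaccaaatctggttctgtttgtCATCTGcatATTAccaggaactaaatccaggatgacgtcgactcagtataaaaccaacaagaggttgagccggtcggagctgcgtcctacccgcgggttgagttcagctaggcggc
Hmx1, chr5:35388611-35388860, plus strand: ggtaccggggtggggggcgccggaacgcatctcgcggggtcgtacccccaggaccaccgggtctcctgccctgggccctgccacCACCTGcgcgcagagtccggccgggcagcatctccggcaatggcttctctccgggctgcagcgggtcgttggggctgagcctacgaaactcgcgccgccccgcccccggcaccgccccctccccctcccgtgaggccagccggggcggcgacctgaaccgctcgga
Shox2, chr3:66981772-66982021, minus strand: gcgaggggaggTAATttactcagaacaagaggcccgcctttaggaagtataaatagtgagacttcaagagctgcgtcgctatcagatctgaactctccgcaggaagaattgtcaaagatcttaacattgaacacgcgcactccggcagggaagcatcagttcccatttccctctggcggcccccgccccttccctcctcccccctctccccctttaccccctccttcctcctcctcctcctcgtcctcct
Gsc held 1 CANNTG and 1 TAAT match in 156 bases, Hmx1 held 1 CANNTG and no TAAT in 250 bases, and Shox2 held 1 TAAT and no CANNTG. Among 32851 promoter windows of 250 bases, 66.2% held CANNTG and 54.9% held TAAT, so a match was common, and it describes letters and not a bound site. In mm10, Gsc (ENSMUSG00000021095) lies at chromosome 12, 104471209 to 104473330, Hmx1 (ENSMUSG00000067438) at chromosome 5, 35389108 to 35399730, and Shox2 (ENSMUSG00000027833) at chromosome 3, 66971727 to 66981771, where it overlaps Rsrc1 on the other strand. Barx1 (ENSMUSG00000021381) lies at chromosome 13, 48662998 to 48666507, Lhx6 (ENSMUSG00000026890) at chromosome 2, 36081953 to 36105408, and Lhx8 (ENSMUSG00000096225) at chromosome 3, 154306294 to 154330659. Pax9 (ENSMUSG00000001497) lies at chromosome 12, 56691767 to 56712822, and overlaps Slc25a21 and Gm15524 on the other strand. Counts are of 3′ ends, so isoforms are not told apart.

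The files held 5987 to 12047 barcodes and 140264662 to 234844769 UMIs per library, and 71.4 to 87.0% of barcodes were kept at E9.5 and E10.5. Tbx1 was at 0.577, 1.04, 5.82 and 4.57 CPM (a gene's UMIs scaled to an equal total of UMIs for each library and cell set) in the controls. It was at 0.660, 2.89 and 2.93 CPM in the null libraries. At E10.5 both null libraries were lower than both controls, and no null library was at 0. Levels were low in sorted NCCs of either genotype and do not tell which genotype label of the null libraries is right. Libraries shared at most 0.410% of barcodes. Mesenchymal crest markers outside the gate (Pdgfra, Twist2, Col1a2, Col3a1, Prdm1) were all found in each library and summed to 369 and 400.2 CPM in null and to 505 and 494.5 CPM in control mesenchymal cells at E10.5. Null replicate 2 at E10.5 stood apart: its 5 neuron markers summed to 814 CPM in mesenchymal cells, against 42.2 to 143 CPM in the other 3 libraries of that stage, and its 5 glial crest markers to 92.5 CPM against 10.6 to 57.1 CPM. Results at E10.5 are therefore also given without cells that had 2 or more neuron or glial marker UMIs, which left 51.8% of the mesenchymal cells of that library and 87.6 to 97.1% in the others.

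Mesenchymal cells were split by UMIs into Hox-negative cells (no UMI of Hoxa2, Hoxa3, Hoxb3 or Hoxd3), Hoxa2-only cells and Hox3-positive cells (any of the 3 group 3 genes). At E10.5 the control libraries held 859 and 2262 Hox-negative, 1260 and 2737 Hoxa2-only, and 1230 and 1719 Hox3-positive cells. The null libraries held 338 and 156, 891 and 275, and 1995 and 1799 in the same order. Hox-negative cells made up 25.6 and 33.7% of control and 10.5 and 7.00% of null mesenchymal cells, so a level over all mesenchymal cells also carries this shift. Within mesenchyme, Dlx5/6-positive cells (with a UMI of Dlx5 or Dlx6) made up 47.5 and 44.4% in controls and 24.1 and 6.19% in null libraries, and Hand2-positive cells (with a Hand2 UMI) 41.9 and 42.6% against 33.8 and 28.8%, so levels within a Hox zone can still carry a shift along these axes, whose part in the genotype differences was not tested. Hoxd4, which was not used for the split, was at 99.4, 81.1, 72.2 and 106 CPM in Hox3-positive cells at E10.5 and at 2.39, 3.59, 3.60 and 19.1 CPM in Hox-negative cells (controls first), the last value, from null replicate 2, standing above the others. A cell without a Hox UMI can be one in which the UMI was missed, and with the first arch removed at E10.5 the 2 kinds cannot be told apart.

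From E9.5 to E10.5 most members went from near 0 to measurable levels in control mesenchyme. In all mesenchymal cells, Gsc was at 0.964 CPM in the control at E9.5 and at 67.6 and 69.5 CPM in the controls at E10.5. Hmx1 was at 0.508 CPM and then 124 and 93.4 CPM, and Shox2 at 0.7996 CPM and then 21.9 and 24.0 CPM. Pax9 was at 0.777 CPM and then 7.96 and 9.62 CPM, and Lhx6 at 0.157 CPM and then 2.19 and 2.30 CPM. These 5 genes were near 0 at E9.5 and higher in both E10.5 libraries. Barx1 was already at 154 CPM at E9.5, beside 211 and 156 CPM at E10.5, and Lhx8 was at 8.82 CPM beside 17.3 and 13.1 CPM. CPM of 3′ tags are compared for 1 gene across cells and not between genes.

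**Figure D1:**
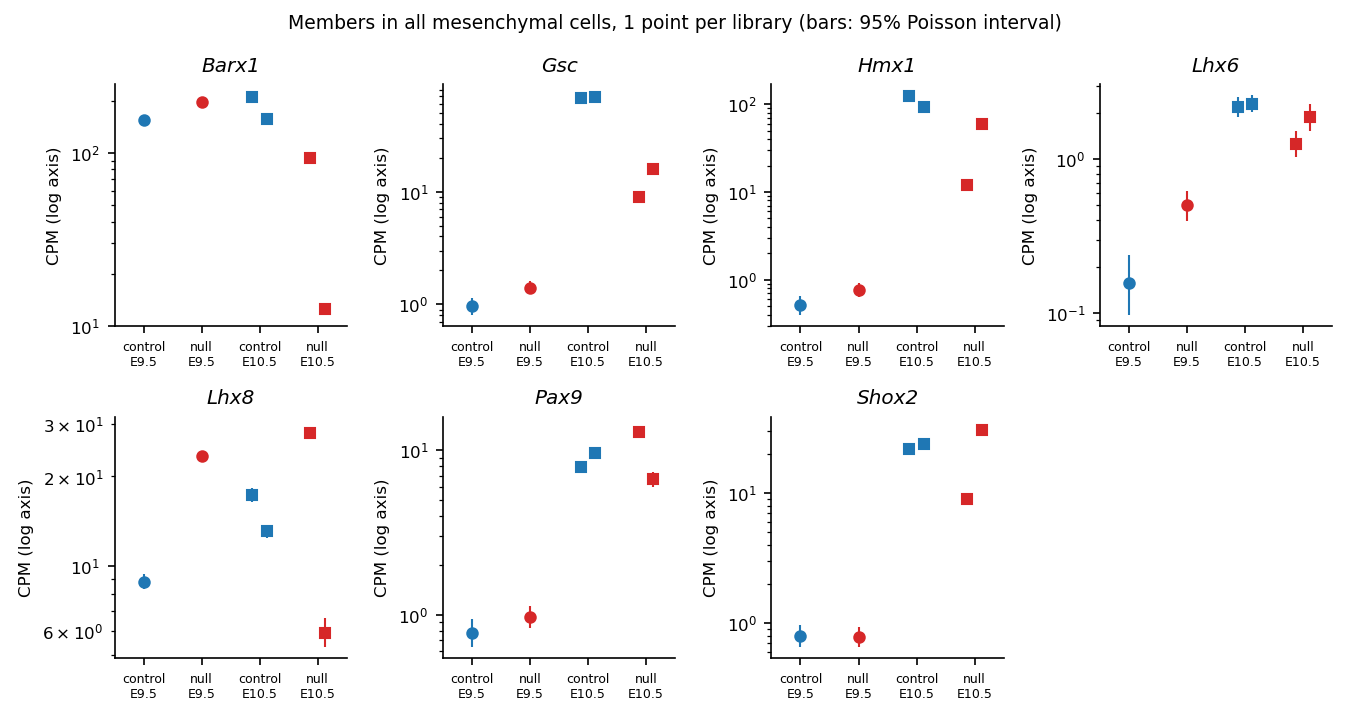
CPM of each member in all mesenchymal cells on a log axis, 1 point per library (blue control, red null; circles E9.5, squares E10.5), with bars for the 95% Poisson interval of the count. Gsc and Hmx1 were under 2 CPM in both E9.5 libraries and lower in both null than in both control libraries at E10.5.

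Within zones the stages were compared over all 6 libraries, both genotypes together and genotype as a term, by edgeR's quasi-likelihood test with Benjamini-Hochberg adjustment over all genes, where a call means an adjusted p under 0.05. Each library is a pool, so p-values measure the spread between pools. In Hox-negative cells 6 of the 7 members passed (33.5% of all 14276 genes did), in Hoxa2-only cells 4 (14.5%) and in Hox3-positive cells 4 (20.2%). Hmx1 rose in all 3 zones, by 5.08 ± 0.67 (log2 fold change ± SE), 6.31 ± 0.38 and 7.36 ± 1.14, with edgeR adjusted p = 0.00112, 0.000262 and 0.00734. Gsc rose by 4.78 ± 0.79, 4.19 ± 0.52 and 4.20 ± 0.64, with edgeR adjusted p = 0.00275, 0.00382 and 0.007. Shox2 rose in each zone as well, least in Hox-negative cells (2.23 ± 0.74, edgeR adjusted p = 0.0461) and most in Hox3-positive cells (5.21 ± 0.52, adjusted p = 0.00234). Its call in Hox-negative cells was lost without control E9.5 replicate 1, null E9.5 replicate 1, control E10.5 replicate 2 or null E10.5 replicate 2 (edgeR adjusted p up to 0.180, at 1.21 without the last), and that in Hoxa2-only cells (2.88 ± 0.44) without control E9.5 replicate 1 (1.88, adjusted p = 0.114). Pax9 rose in Hox-negative and Hoxa2-only cells, by 3.12 ± 0.40 and 4.06 ± 0.27 (edgeR adjusted p = 0.00103 and 0.000355), and Lhx6 passed in Hox3-positive cells (5.09 ± 0.62, adjusted p = 0.00364).

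Barx1 and Lhx8 went the other way in Hox-negative cells. First arch cells fall in this zone and that arch was removed at E10.5, so stage and dissected tissue cannot be told apart here. Barx1 was at 235 CPM in the control and 264 CPM in the null at E9.5, and at 137 and 103 CPM in controls and 86.2 and 20.9 CPM in null libraries at E10.5. All 4 later values lay under both earlier ones (-2.21 ± 0.46, edgeR adjusted p = 0.0073), and the call was lost without null E9.5 replicate 1 (-1.47, adjusted p = 0.0920). Lhx8 was at 12.9 and 30.6 CPM at E9.5, and at 3.92, 4.63, 9.94 and 3.13 CPM at E10.5, again without overlap (-2.39 ± 0.32, edgeR adjusted p = 0.00118). In Hoxa2-only cells control Barx1 was instead at 57.3 CPM at E9.5 and at 324 and 227 CPM at E10.5, and control Lhx8 at 3.85 CPM and then 23.6 and 15.9 CPM. In Hox3-positive cells control Barx1 was at 12.9 CPM and then 128 and 93.1 CPM, and control Lhx8 at 1.74 CPM and then 17.3 and 17.2 CPM. Over both genotypes none of these 4 differences passed. The calls in Hox3-positive cells went from 4 to 0 without control E9.5 replicate 1, and those in Hoxa2-only cells from 4 to 7 without null E10.5 replicate 2.

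Along the Hox axis at E10.5, over the 4 E10.5 libraries with the library as a block, Barx1, Lhx8 and Pax9 passed between Hoxa2-only and Hox-negative cells (17.1% of genes did), and 5 members passed between Hox3-positive and Hoxa2-only cells (18.8%). Pax9 was highest in Hoxa2-only cells, at 15.5 and 15.5 CPM in controls and 31.4 and 25.5 CPM in null libraries, against 2.53, 5.62, 9.94 and 10.3 CPM in Hox-negative and 2.72, 4.05, 4.52 and 3.58 CPM in Hox3-positive cells. Its Hoxa2-only level was above both neighbours in every library. The log2 fold change was 1.84 ± 0.21 from Hox-negative to Hoxa2-only cells (edgeR adjusted p = 0.00125) and -2.59 ± 0.19 from there to Hox3-positive cells (adjusted p = 1.96e-05). Barx1 had the same order, with log2 fold changes of 1.33 ± 0.26 and -1.89 ± 0.25 (edgeR adjusted p = 0.00879 and 0.000549), the first lost without control replicate 1 (adjusted p = 0.0761).

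Lhx8 was lowest in Hox-negative cells, where it was at 3.92, 4.63, 9.94 and 3.13 CPM, and higher in Hoxa2-only cells, at 23.6, 15.9, 42.5 and 13.1 CPM (2.27 ± 0.22, edgeR adjusted p = 0.000758). Its smaller fall into Hox3-positive cells (-0.61 ± 0.18, edgeR adjusted p = 0.034) kept its call in 8 of 14 alternatives. The call was lost without control replicate 1, null replicate 1 or null replicate 2 (edgeR adjusted p = 0.107, 0.238 and 0.0900). It was also lost without cells that carried neuron or glial markers (-0.39, edgeR adjusted p = 0.0881). Gsc had the opposite slope: its control levels were 166 and 136 CPM in Hox-negative, 65.1 and 59.5 CPM in Hoxa2-only and 21.4 and 17.3 CPM in Hox3-positive cells. The fall from Hoxa2-only to Hox3-positive cells passed (-1.76 ± 0.27, edgeR adjusted p = 0.00129), and the step from Hox-negative to Hoxa2-only cells did not over the 4 libraries (adjusted p = 0.067). Shox2 was the member of the caudal zone, at 44.4, 65.8, 13.3 and 35.7 CPM in Hox3-positive cells against 8.88, 9.93, 2.43 and 3.12 CPM in Hoxa2-only cells (2.51 ± 0.26, edgeR adjusted p = 0.000128). Lhx6, at 4.05 and 6.07 CPM, was also highest in control Hox3-positive cells, without passing (edgeR adjusted p = 0.100), and Hmx1, at 84.5 and 62.6, 132 and 92.5, and 134 and 127 CPM in the 3 control zones, did not pass between zones.

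**Figure D2:**
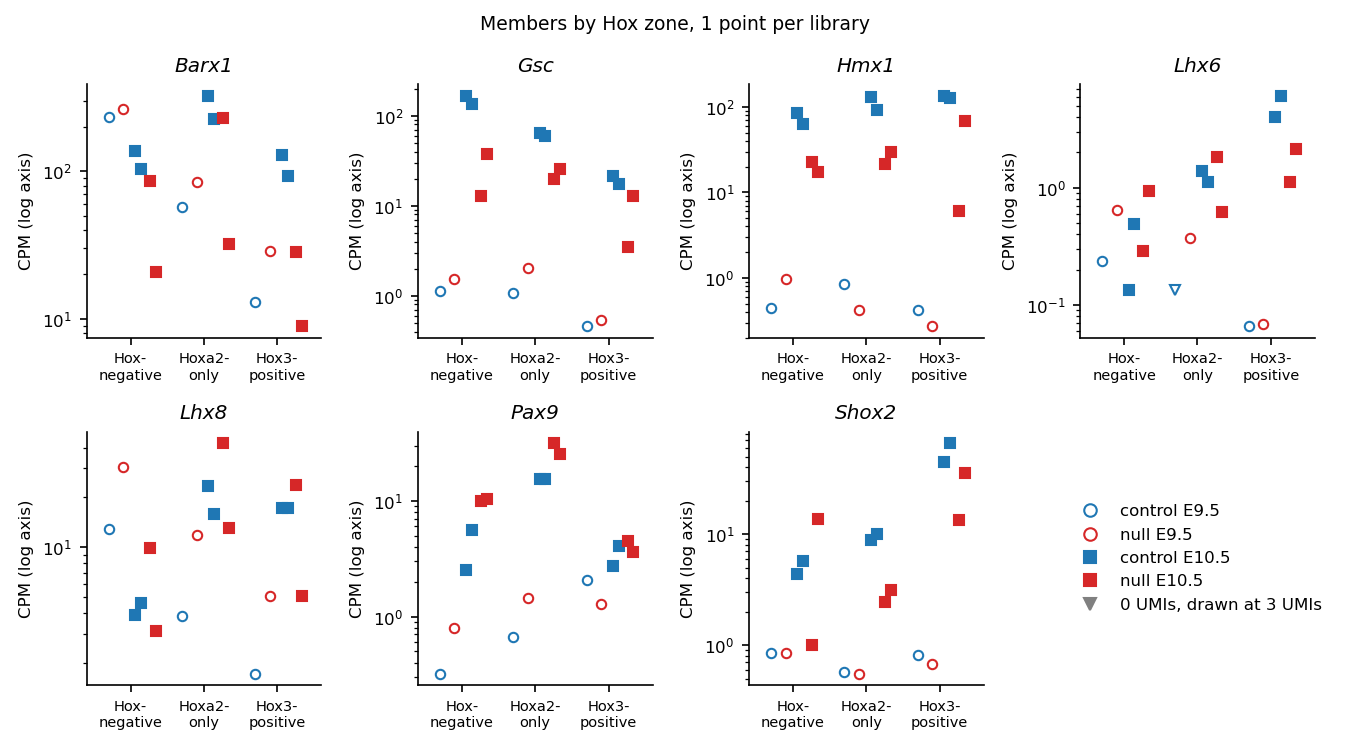
CPM of each member by Hox zone on a log axis, 1 point per library (blue control, red null; open circles E9.5, filled squares E10.5; a triangle marks 0 UMIs at the level of 3). At E10.5, Gsc stepped down from Hox-negative to Hox3-positive cells in both controls, and in all 4 libraries Shox2 was highest in Hox3-positive and Pax9 in Hoxa2-only cells.

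By Dlx5/6 and Hand2 UMIs, Barx1 followed Dlx5 and Dlx6 and Gsc followed Hand2. The study found Hand2 in crest cells of the cardiac outflow tract as well as in the arches, and the heart was dissected too. Hand2-positive cells can therefore come from either place, and the split is not the dorsal to ventral axis alone. Cells with a Dlx5 or Dlx6 UMI had Barx1 at 357, 260, 264 and 48.0 CPM at E10.5 (controls first), and cells without one had it at 38.3, 45.0, 28.7 and 9.95 CPM. The sets did not overlap (2.96 ± 0.18, edgeR adjusted p = 0.00256). Among control cells split by all 3 measures, Barx1 was highest in Hoxa2-only cells with both Dlx5/6 and Hand2, at 550 and 412 CPM. Gsc was at 130, 135, 22.8 and 45.8 CPM in cells with a Hand2 UMI and at 20.2, 18.2, 0.884 and 2.68 CPM in cells without (3.30 ± 0.30, edgeR adjusted p = 0.00185). It peaked at 272 and 225 CPM in control Hox-negative cells with Dlx5/6 and Hand2. Shox2 lay on the other side, lower in Dlx5/6-positive (-0.96 ± 0.19, edgeR adjusted p = 0.0247) and in Hand2-positive cells (-1.30 ± 0.20, adjusted p = 0.00843), with control levels of 63.4 and 108 CPM in Hox3-positive cells that had neither. The first of these calls was lost without control replicate 1, control replicate 2 or null replicate 1 (edgeR adjusted p = 0.115, 0.0673 and 0.0751). In the main fits only these members passed: 2 of 7 by Dlx5/6 (16.9% of genes did) and 2 of 7 by Hand2 (19.8%).

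Hmx1, Pax9, Lhx8 and Lhx6 passed in neither the Dlx5/6 nor the Hand2 contrast of the main fits. The counts depended on the setting. With cells thinned to 5000 UMIs, 4 members passed by Dlx5/6 and 6 by Hand2. At a gate of 4 UMIs, 4 members passed in each. Shares of all genes under these settings are not given here. Hmx1 was at 5.82 and 6.22 CPM in control Hox-negative cells with Hand2 but not Dlx5/6, and at 92.0 and 116 CPM in those with neither. With Hand2 and Dlx5/6 it was at 91.2 and 50.5 CPM, so the low level belonged to cells with Hand2 alone. Control Pax9 was highest in Hoxa2-only cells without Dlx5/6 or Hand2, at 39.3 and 39.9 CPM, and null libraries were there at 36.0 and 39.4 CPM, close to the controls. Control Lhx8 was highest in the same cells, at 64.2 and 32.7 CPM, and null libraries were at 51.9 and 18.7 CPM, overlapping the controls.

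**Figure D3:**
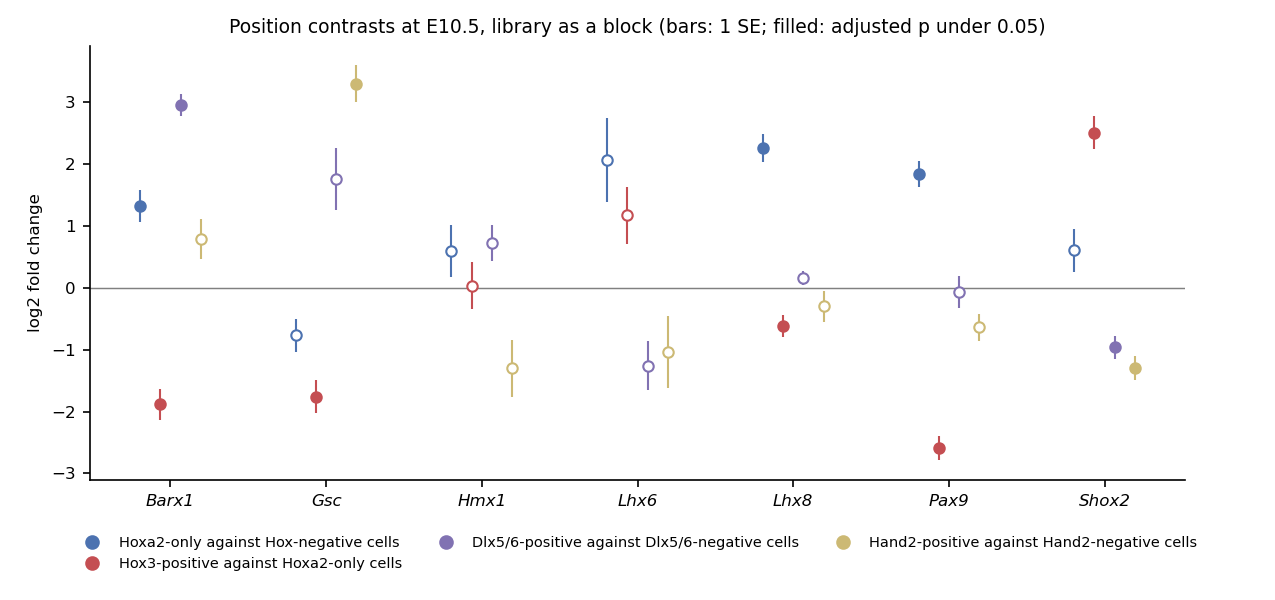
Log2 fold change of each member between positions at E10.5 over 4 libraries with the library as a block, with bars of 1 SE, filled where the adjusted p was under 0.05. Barx1 was higher in Dlx5/6-positive, Gsc in Hand2-positive and Shox2 in Hox3-positive cells.

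Control cells at E10.5 rarely held both Gsc and Hmx1. With each cell thinned to 5000 UMIs, control replicates 1 and 2 at E10.5 had 604 and 1300 cells with Gsc and 451 and 945 with Hmx1, and 27 and 43 with both, which is 0.316 and 0.231 times the number expected if detection were independent. Gsc and Lhx8 met in 1 and 8 cells (0.0300 and 0.135 times), and Hmx1 and Pax9 in 2 and 6 cells (0.175 and 0.178 times). Barx1 overlapped with others more often than independent detection gives: with Gsc in 220 and 404 cells (1.35 and 1.34 times), with Lhx8 in 69 and 98 (1.45 and 1.41 times) and with Pax9 in 51 and 101 (2.33 and 1.86 times). Barx1 and Hmx1 met in 79 and 136 cells (0.650 and 0.622 times). In null replicates 1 and 2 some pairs fell differently: Gsc and Hmx1 met in 4 and 4 cells (0.985 and 0.478 times), Gsc and Lhx8 in 9 and 0 cells where 9.95 and 2.11 were expected, and Barx1 and Hmx1 in 35 and 7 cells (2.39 and 1.36 times), on the other side of 1 from the controls. Barx1 and Gsc met in 52 and 10 cells (3.37 and 2.64 times). At least 1 of the 7 genes was found in 57.7 and 57.7% of control, and in 28.0 and 23.1% of null, mesenchymal cells at E10.5, against 27.1 and 38.0% in the control and the null at E9.5. The ratios are descriptions over the cells of each library and were not tested.

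**Figure D4:**
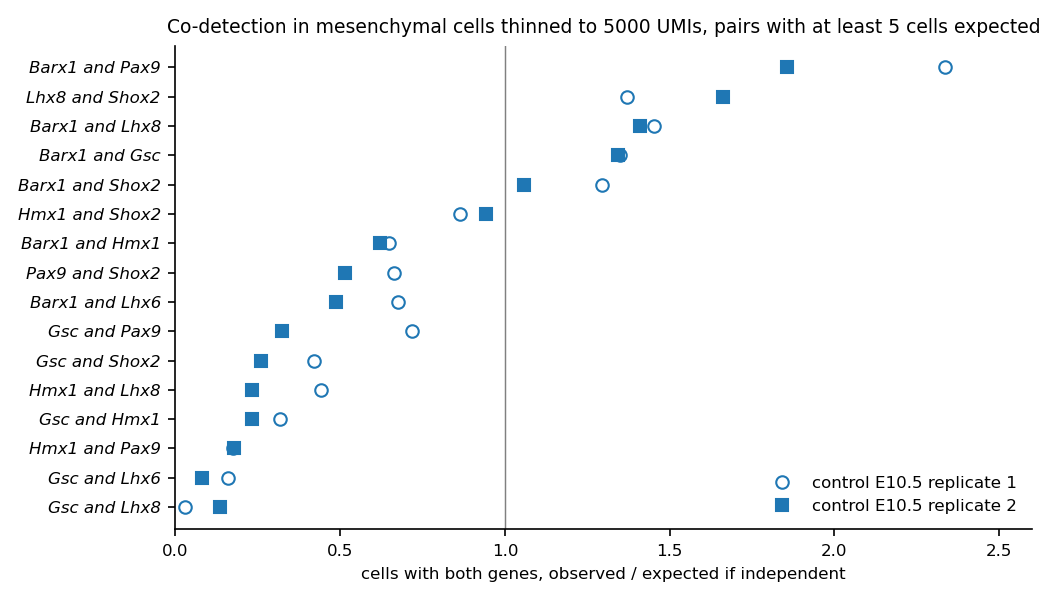
Cells holding both genes of a pair, as observed over expected under independence, in the 2 control libraries at E10.5 thinned to 5000 UMIs per cell, for the 16 pairs with at least 5 cells expected. Values ran from 0.0300 for Gsc and Lhx8 to 2.33 for Barx1 and Pax9, and the libraries fell on the same side of 1 for each pair.

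At E9.5, Lhx8 was higher in the null library than in the control. Each genotype has 1 library at this stage, so the genotypes were compared without a test, and a gene is described as past 2-fold when it had at least 10 CPM in 1 library. Lhx8 was at 8.82 CPM in the control and at 23.5 CPM in the null (2.57 times after TMM scaling, log2 1.36, 95% interval 1.26 to 1.45), and 0.685% of 6862 genes were past 2-fold. It was 2.31 times higher in Hox-negative cells (12.9 and 30.6 CPM, 0.767% of genes) and 2.95 times higher in Hoxa2-only cells (3.85 and 11.9 CPM, 0.833% of genes), where it was no longer past 2-fold with thinned cells (log2 0.79). In Hox3-positive cells it was at 1.74 and 5.06 CPM, under the minimum level. Lhx8 was found in 4.03% of control and 9.45% of null thinned mesenchymal cells, against 0.155 and 0.374% of Sox10/Foxd3 cells thinned to the same depth. Barx1 was at 154 and 197 CPM (log2 0.30) and passed 2-fold in Hox3-positive cells, at 12.9 and 28.7 CPM (log2 1.05, 95% interval 0.88 to 1.23; 1.01% of genes), where it was no longer past it with doublets kept, with thinned cells, or with the Hox split at 2 UMIs, when its log2 ratio was 0.015. The intervals cover counting error only, and the Hox3-positive value moved with how the cells were chosen. The make-up of the mesenchyme also differed at E9.5. Hox-negative cells made up 61.7% of control and 69.4% of null mesenchymal cells, Dlx5/6-positive cells 36.7 and 44.2%, and Hand2-positive cells 20.1 and 26.5%. The part of these shifts in the Lhx8 and Barx1 differences was not tested.

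At E10.5, Gsc and Hmx1 were lower by level in both null libraries than in both controls in each zone, and passed the test in Hox-negative and Hoxa2-only cells. How many of all genes lay without overlap between genotypes was not counted, so such orderings here and below are descriptions. Over all mesenchymal cells Gsc was at 67.6 and 69.5 CPM in controls and at 9.03 and 15.8 CPM in null libraries, with no overlap (-2.68 ± 0.27, edgeR adjusted p = 0.0413). It was the 1 member called, beside 0.1% of 15938 genes. The call was lost at a gate of 4 UMIs of the mesenchymal marker genes (edgeR adjusted p = 0.0798), with cells kept at 200 genes or more and at most 5% mitochondrial UMIs (0.0725), with DESeq2 size factors (0.0577) and with 6 libraries and stage as a term (0.571). Hmx1 was at 124 and 93.4 CPM against 11.98 and 60.1 CPM, also without overlap but with the null libraries far from each other, and did not pass (-1.83 ± 0.62, adjusted p = 0.262). Barx1 was at 211 and 156 CPM against 93.2 and 12.5 CPM (-1.90 ± 0.83, adjusted p = 0.348). Barx1 was at -4.11 without null replicate 1 and at -1.06 without null replicate 2. Hmx1 ran from -3.26 to -1.09 when 1 library was left out, the first without null replicate 2. Here and below, a fit without 1 library leaves a genotype with a lone library, which is assumed to vary like those of the other genotype. Pax9, Lhx8 and Shox2 had 1 null library above and 1 below both controls, and Lhx6 was at 1.26 and 1.88 CPM against 2.19 and 2.30 CPM (edgeR adjusted p = 0.361).

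In Hox-negative cells Gsc was at 166 and 136 CPM in controls and at 12.96 and 37.2 CPM in null libraries (-2.76 ± 0.42, edgeR adjusted p = 0.0323). It was found in 38.6 and 34.1% of thinned control and in 5.83 and 13.1% of thinned null cells, against 0 to 0.167% of Sox10/Foxd3 cells at the same depth, so the share of cells fell with the level. Hmx1 was at 84.5 and 62.6 CPM against 22.6 and 17.5 CPM (-1.97 ± 0.24, edgeR adjusted p = 0.0199). It was found in 10.5 and 9.95% of thinned control and 7.06 and 3.92% of thinned null cells, against at most 1.84% of Sox10/Foxd3 cells. These 2 of the 6 members tested passed, beside 0.495% of 12920 genes, and Lhx6 was too low to be tested. Barx1, at 137 and 103 against 86.2 and 20.9 CPM (-1.25 ± 0.48), and Pax9, at 2.53 and 5.62 against 9.94 and 10.3 CPM (1.15 ± 0.40), did not overlap between genotypes and did not pass (edgeR adjusted p = 0.237 and 0.205). Barx1 passed there without null replicate 1 (-2.63, edgeR adjusted p = 0.00164) and without control replicate 2 (-1.41, adjusted p = 0.00897), and was at -0.611 without null replicate 2. Pax9 passed without control replicate 2 as well, in the other direction (1.90, adjusted p = 0.0140). The null Hox-negative cells were few, 338 and 156, and both calls were lost at a gate of 4 UMIs (edgeR adjusted p = 0.140 for Gsc and 0.0735 for Hmx1). Hmx1 also lost its call with thinned cells (-1.31, adjusted p = 0.237) and in Hox-negative cells that lacked Hoxb2 and Hox 4 UMIs too (-1.25, adjusted p = 0.146).

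In Hoxa2-only cells 3 of 7 members passed, beside 0.262% of 13755 genes, and all 3 fell. Hmx1 was at 132 and 92.5 CPM against 21.4 and 29.8 CPM (-2.31 ± 0.27, edgeR adjusted p = 0.0172), and this call held in 15 of 16 alternatives. Gsc was at 65.1 and 59.5 CPM against 19.6 and 25.8 CPM (-1.63 ± 0.23, adjusted p = 0.0394), and Shox2 at 8.88 and 9.93 CPM against 2.43 and 3.12 CPM (-1.95 ± 0.28, adjusted p = 0.0431). For each of these genes both null libraries lay under both controls. The calls of Gsc and Shox2 lay near the threshold, held in 10 and 8 of 16 alternatives, and were both lost without control replicate 2 (adjusted p = 0.106 and 0.206). Pax9 was higher in both null libraries by level, at 31.4 and 25.5 CPM against 15.5 and 15.5 CPM (adjusted p = 0.252). Barx1 was split between the null libraries, at 231 and 32.2 CPM beside controls at 324 and 227 CPM (-1.15 ± 0.72, edgeR adjusted p = 0.519), and passed without null replicate 1 (-3.30, adjusted p = 0.00011) but was at -0.33 without null replicate 2.

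In Hox3-positive cells no member passed, beside 0.0271% of 14782 genes. edgeR gave 1881 genes an unadjusted p under 0.05 there. DESeq2 called 2 members, but its share of all genes is not given here and the edgeR share does not stand for it. Barx1, at 128 and 93.1 CPM against 28.4 and 8.91 CPM (-2.69 ± 0.54, edgeR adjusted p = 0.200), Hmx1, at 134 and 127 against 6.02 and 67.8 CPM (-2.05 ± 0.84, adjusted p = 0.383), Shox2, at 44.4 and 65.8 against 13.3 and 35.7 CPM (-1.37 ± 0.42, adjusted p = 0.338), Gsc, at 21.4 and 17.3 against 3.47 and 12.7 CPM (-1.46 ± 0.50, adjusted p = 0.348) and Lhx6, at 4.05 and 6.07 against 1.12 and 2.14 CPM (-1.83 ± 0.40, adjusted p = 0.248), were all lower in both null libraries. The share of all genes without overlap between genotypes was not counted in this or the other cell sets, so such orderings are descriptions. The null libraries lay far apart for Hmx1. When 1 library was left out, Hmx1 ran from -4.53 to -1.12 and Gsc from -2.58 to -0.778. Without null replicate 2 the test called 5 members beside 212 of 14883 genes, without null replicate 1 it called 3 beside 410 of 15229, and without control replicate 1 it called 1 beside 203 of 15745. In Dlx5/6-positive and Dlx5/6-negative cells edgeR called 0 members, beside 0.29% and 0% of genes, with 1934 and 1901 genes at an unadjusted p under 0.05. DESeq2 called 1 member in Dlx5/6-positive cells, again without its share of all genes. In Dlx5/6-positive cells Gsc had a log2 fold change of -1.0 ± 0.36 (edgeR adjusted p = 0.292), beside -2.68 over all mesenchymal cells. Barx1 had -1.08 ± 0.67 there (edgeR adjusted p = 0.505). When 1 library was left out, Gsc ran from -1.66 to -0.470 and Barx1 from -2.90 to -0.314. In Dlx5/6-negative cells Gsc and Barx1 had -3.11 ± 0.67 and -1.20 ± 0.49 (edgeR adjusted p = 0.271 and 0.396). With 1 library left out they ran from -4.72 to -2.31 and from -2.22 to -0.581. Hmx1 came nearest in Dlx5/6-positive cells, at 149 and 102 CPM against 24.9 and 50.8 CPM (-1.95 ± 0.34, edgeR adjusted p = 0.0907). It passed there at a gate of 4 UMIs (-2.56, edgeR adjusted p = 0.00387), with thinned cells (-1.96, edgeR adjusted p = 0.00203) and with DESeq2 (-1.92, DESeq2 adjusted p = 2.45e-06). It did not pass in every alternative, with an edgeR adjusted p of up to 0.468. When 1 library was left out it ran from -2.42 to -1.52.

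**Figure D5:**
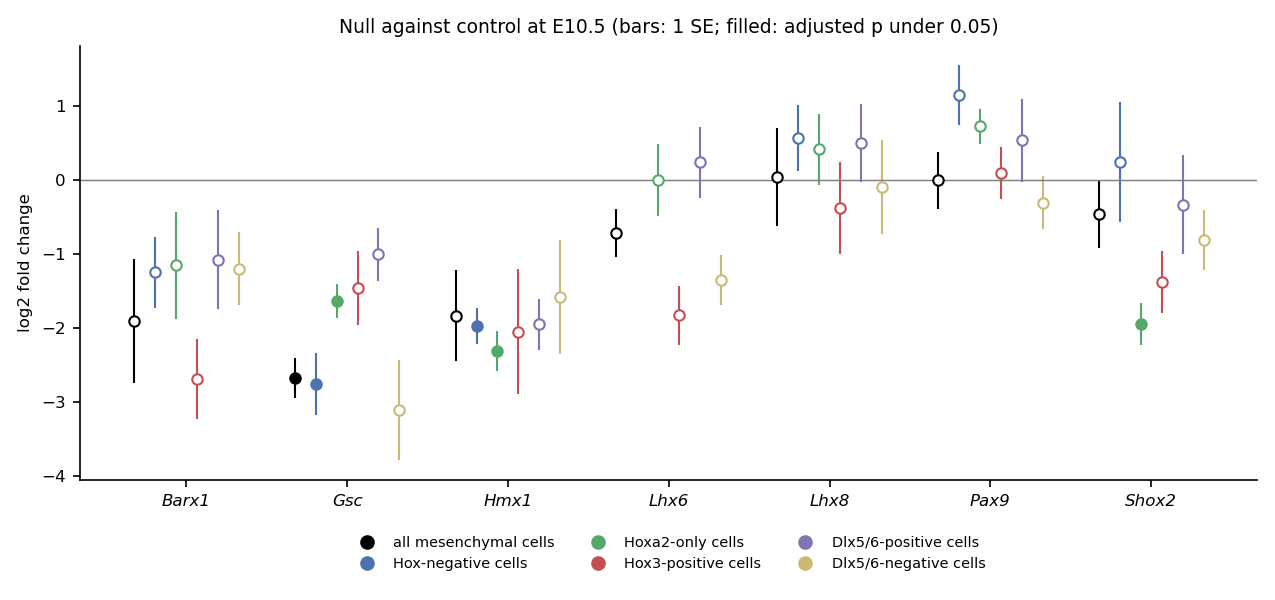
Log2 fold change of null against control at E10.5 for each member in 6 sets of mesenchymal cells, 2 libraries per genotype, with bars of 1 SE, filled where the adjusted p was under 0.05. Gsc and Hmx1 were under 0 in every set, and the filled points are Gsc in 3 sets, Hmx1 in 2 and Shox2 in 1.

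Without cells that carried neuron or glial crest markers, Gsc and Hmx1 kept their calls. Gsc had log2 fold changes of -2.37 over all mesenchymal, -2.70 in Hox-negative and -1.63 in Hoxa2-only cells (edgeR adjusted p = 0.0428, 0.0374 and 0.0486), and Hmx1 of -1.70 and -2.23 in the last 2 (adjusted p = 0.0266 and 0.0363). Shox2 in Hoxa2-only cells stayed at -1.96 with an adjusted p of 0.0555. Hmx1 in Dlx5/6-positive cells then passed, at -2.66 (adjusted p = 0.00904). Neuron-marker cells, outside the mesenchymal set, held both Hmx1 (7.09 and 77.2 CPM in controls, 2.16 and 42.7 CPM in null libraries at E10.5) and Shox2 (31.9, 71.3, 8.16 and 47.5 CPM). Sox10/Foxd3 cells of null replicate 2 had Hmx1 at 18.1 and Shox2 at 20.2 CPM, against at most 0.958 and 3.03 CPM in the other E10.5 libraries. Shox2 in Hox-negative cells of that library, at 13.8 CPM above both controls, was 5.70 CPM without marker cells, beside 4.26 and 5.68 CPM in controls and 1.09 CPM in null replicate 1.

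Whether the genotype difference itself changed along the Hox axis was tested as an interaction. From Hoxa2-only to Hox3-positive cells, Barx1 was the 1 member called (-1.29 ± 0.23, edgeR adjusted p = 0.0316), beside 1.11% of 15307 genes, its deficit in null cells being greater in Hox3-positive cells. Leaving out 1 library in turn moved the value from -1.74 to -0.512, the smallest without null replicate 1. The call was lost with Hox-negative cells also lacking Hoxb2 and Hox 4 UMIs (-1.30, edgeR adjusted p = 0.0512), without control replicate 2 (-1.24, adjusted p = 0.141), without marker cells (-1.07, adjusted p = 0.195) and with DESeq2 (adjusted p = 0.235). From Hox-negative to Hoxa2-only cells edgeR called 0 members, beside 0.189% of genes, 1272 of which had an unadjusted p under 0.05, and DESeq2 called 0 as well. Gsc came nearest, with a smaller deficit in Hoxa2-only cells (1.34 ± 0.34, edgeR adjusted p = 0.197). Its value ran from 0.695 to 1.94 when 1 library was left out.

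A list of 41 other arch patterning genes was compared between genotypes in the same fits. Like the members, it was chosen with earlier results of these data known. Its shares beside those of all genes are therefore descriptions and no test of the list. Emx2, a homeobox gene, fell in every zone. In Hoxa2-only cells it had 1852 and 4238 UMIs in controls and 10 and 2 in null libraries, and in Hox-negative cells 298 and 998 against 0 and 0. The UMI counts in this paragraph are not scaled to depth. Hoxa2-only cells held 31661979 and 51643097 UMIs in controls and 23902920 and 6402026 in null libraries. Hox-negative cells held 15044082 and 32589688 against 6945124 and 3198926. In Hox-negative cells Dlx3 and Dlx4, homeobox genes of the ventral arch, fell as well: Dlx3 had 325 and 683 UMIs in controls and 21 and 1 in null libraries, and Dlx4 had 144 and 254 against 2 and 1. With edgeR that made 3 lower and 0 higher of 32 tested there (9.38%, against 0.495% of all genes), 1 lower of 33 in Hoxa2-only cells (3.03%, against 0.262%), and 1 lower of 37 in Hox3-positive cells (2.70%, against 0.0271%). The median log2 fold change of the list was -0.09, 0.30 and -0.12 in these zones, against -0.00073, -0.01 and -0.01 over all genes, and that of the members tested was -0.50, -1.15 and -1.46. In Dlx5/6-positive cells Emx2, Pou3f3 (-3.15) and Foxd1 (-1.70) were lower and Tbx3 (1.54), Alx1 (1.88) and Hand1 (2.05) higher in null cells, which is 17.6% of 34 tested, against 0.29% of all genes. Between positions, where 18.8 and 19.8% of all genes passed, 14 of 37 were higher and 8 lower in Hox3-positive than in Hoxa2-only cells, and 13 higher and 9 lower in Hand2-positive cells.

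Genes whose level ran most closely with each member were found over 64 groups of cells (6 libraries by Hox zone, Dlx5/6 and Hand2) among 9352 genes. The groups share libraries, depth and cell states, so the correlations are descriptions. Barx1 ran with Dlx6os1 (Pearson r = 0.890), the RNA opposite Dlx6, and with Dlx3 (0.859) and Car14 (0.802). Gsc ran with Rps6ka6 (0.905), Dicer1 (0.888) and Lrrc17 (0.880), Hmx1 with Pcdh10 (0.900), Cenpv (0.899) and Zfhx4 (0.886), and Shox2 with Slco3a1 (0.840), Rnf150 (0.839) and Basp1 (0.824). Pax9 ran with Zfp703 (0.806), Plpp3 (0.769) and Nr2f1 (0.768). Lhx8 and Lhx6 had no close partner: the highest were Prkar2b at 0.642 and Shox2 at 0.677. Among members, Hmx1 ran with Shox2 (0.687) and Pax9 (0.603), and Gsc and Lhx8 had an r of -0.227. The groups span both stages and genotypes, and Hmx1, Shox2 and Pax9 were all near 0 at E9.5. The part of stage in these r values was not tested. The few cells with both Hmx1 and Pax9 were counted in E10.5 controls only, a different set.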

How the data were processed

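Cells from 7 libraries were analysed. The authors made the deposited UMI counts per gene and cell with Cell Ranger 6.0.1 on mm10. Cells were kept from 1000 detected genes upward and with mitochondrial UMIs of 10% or less, and Scrublet doublets were removed at 0.8% per 1000 barcodes (scanpy 1.11.5). Counts were summed per library and cell set. They were tested with edgeR 4.0.16 (quasi-likelihood, TMM, filterByExpr, Benjamini-Hochberg over all genes), with DESeq2 1.42.0 as an alternative. Contrasts of positions had the library as a block. E9.5 genotypes have 1 library each and were compared without a test (pseudocount of 0.5 UMIs). Shares of cells used cells thinned to 5000 UMIs. Named were the 7 members, up to 5 risen and 5 fallen of 41 other arch genes per comparison, and the 3 genes most like each member over groups of at least 20 cells and a mean of at least 5 CPM. Members and lists were chosen with earlier results of these data known. Intervals and floors cover counting error only. On simulated counts the genotype fits recovered 8 to 29.5% of genes changed 2-fold, so many such changes would be missed.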

Additional observations from a re-analysis of the deposited data

Results flagged for a closer look

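Barx1 was marked because its genotype difference itself differed between zones, by -1.29 on the log2 scale from Hoxa2-only to Hox3-positive cells (edgeR quasi-likelihood interaction, adjusted p = 0.0316). The value ran from -1.74 to -0.512 when 1 library was left out.

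Barx1 was also marked because the single null library at E9.5 lay above the control while both null libraries at E10.5 lay below both controls after TMM scaling. In Hoxa2-only cells this held only with that scaling: by CPM, null replicate 1 lay above control replicate 2. The log2 ratio at E9.5 was 0.302 over all mesenchymal cells, 0.129 in Hox-negative, 0.503 in Hoxa2-only and 1.05 in Hox3-positive cells, and the log2 fold changes at E10.5 were -1.90, -1.25, -1.15 and -2.69, none of which passed (edgeR adjusted p = 0.348, 0.237, 0.519 and 0.200). The value of 1.05 at E9.5 was 0.015 with the Hox split at 2 UMIs, and that of -1.15 at E10.5 ran from -3.30 to -0.33 when 1 library was left out. The difference between stages was not tested.

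Members were found at low levels in the E8.5 control library, which no comparison used. In mesenchymal cells Gsc was at 0.136 CPM, Hmx1 and Pax9 at 0.149 CPM each and Shox2 at 0.122 CPM, each above the level of 3 UMIs. Gsc was higher outside them, at 3.83 CPM in cells with neuron markers, 1.33 CPM in SoxB cells without mesenchymal UMIs and 0.734 CPM in the remaining cells, and Shox2 was at 0.524 CPM in the SoxB cells. These levels have no replicate.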

How the results depend on the processing

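Single members were followed for 57 results that had passed or were genotype differences of at least 2-fold, so results near 0 were not among them. Of their 822 alternative values, 1 reversed. The Shox2 genotype difference between Hoxa2-only and Hox-negative cells ran from -3.06 without null E10.5 replicate 1 to 0.457 without null E10.5 replicate 2. In alternatives that kept all libraries, 30 values gained and 30 lost a call. Counts of members called follow, with the main count in parentheses. The share of all genes called in each alternative is not given beside them. The counts are therefore descriptions and not results about the members. Over all mesenchymal cells (1) the count was 0 at a gate of 4 UMIs, with the other cell filter, with DESeq2 size factors and with 6 libraries, 3 without the filter on low counts, and 1 to 2 leaving out a library. In Hox-negative cells (2) it was 0 at the gate of 4 and with 6 libraries, 1 thinned or without Hoxb2 and Hox 4 UMIs, and 2 to 4 leaving out a library. In Hoxa2-only cells (3) it was 1 at the gate of 4, with the other filter, with Hox split at 2 UMIs and with DESeq2 size factors, 0 with 6 libraries, and 1 to 5 leaving out a library. In Hox3-positive cells (0) it was 2 thinned or with DESeq2, and 0 to 5. In Dlx5/6-positive cells (0) it was 2 at the gate of 4 or without marker cells, 1 thinned or with DESeq2, 3 without the low-count filter, and 1 to 4. In Dlx5/6-negative cells (0) it was 1 thinned, 2 without that filter, and 0 to 2. With the replicate block it was 1, 4, 4, 1, 3 and 0 in these 6 sets. The block added Pax9 (1.30, edgeR adjusted p = 0.0386) and Barx1 (-1.49, 0.00639) in Hox-negative cells, Barx1 in Hoxa2-only (-1.77, 0.0326) and Hox3-positive cells (-2.94, 0.0239), and Barx1, Gsc and Hmx1 in Dlx5/6-positive cells (adjusted p = 0.0136, 0.0142 and 8.91e-05). The numbers do not pair the libraries (r = 0.0944 across genes). Hoxa2-only against Hox-negative cells (3) gave 5 at the gate of 4, with doublets kept, without marker cells and without the low-count filter, and 2 to 5. By Dlx5/6 (2) the count was 4 at the gate of 4 and thinned, and 1 to 2, and by Hand2 (2) it was 4 and 6, and 2 to 5. The interaction with Hox-negative cells (0) gave 1 without Hoxb2 and Hox 4 UMIs, 2 without the low-count filter, and 0 to 1. That with Hox3-positive cells (1) gave 2 with the other filter or split, 0 without Hoxb2 and Hox 4 UMIs, without marker cells and with DESeq2, 3 without the low-count filter, and 0 to 4. Stage in Hoxa2-only cells (4) gave 6 with DESeq2, 7 without the low-count filter, and 3 to 7, and in Hox3-positive cells (4) 0 to 5. At E9.5 the count past 2-fold went from 1 to 0 in Hoxa2-only cells when thinned, and in Hox3-positive cells when thinned, with doublets kept or with Hox split at 2 UMIs. Leaving out cells with markers was chosen after seeing the data. The causes were not tested.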
